A study of Caenorhabditis elegans with 3 samples.

Results

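The nuclear hormone receptor genes of Caenorhabditis elegans were examined for binding of EGL-27 in first-stage larvae. Members were the protein-coding genes of the WBcel235 Ensembl annotation whose name is nhr- plus a number, 266 of 19985 protein-coding genes (1.33% of those on the nuclear chromosomes). A further 3 genes named in this way were not analysed here. No measured value entered the choice. Binding had been mapped by ChIP-seq in 3 biological replicates of whole, mixed-sex L1 larvae of strain OP177, genotype unc-119(ed3) III; wgIs177, in which wgIs177 is an integrated transgene of egl-27 fused to GFP. A label of replicate 3 adds that the tag is a C-terminal GFP-FLAG. For replicates 1 and 2 the worms are credited to a stock centre and the labels list a size range of 150 to 350, whereas for replicate 3 they name the laboratory itself and microtip sonication. All replicates carry the transgene, and a strain without the tag was not analysed here, so signal that does not depend on the tagged protein cannot be told apart. The labels give no age beyond the stage and no second condition.

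Nuclear hormone receptors are transcription factors with a zinc-finger domain that binds DNA and a second domain that, in many family members, binds a small lipophilic ligand. In flies and vertebrates the family is small, whereas the C. elegans family has expanded greatly, mostly from an ancestor related to vertebrate HNF4, with many members in clusters on chromosome V. The better-studied members control fat metabolism, responses to diet, moulting and neuronal identity. EGL-27 is itself a chromatin protein, a relative of the MTA subunits of nucleosome remodelling and deacetylase complexes.

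The pooled relaxed list held 23218 peaks, the replicate lists 15286, 30000 and 30000, and the IDR list 705, of which 704 were nuclear. A summit is the position of highest signal that the authors gave for a peak. Each summit was given to the gene of the nearest protein-coding transcript 5′ end at any distance. It was also given to every gene with a 5′ end in whose window it lay, from 1000 bp upstream to 500 bp downstream, here called the promoter window.

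EGL-27 summits of the IDR list stood nearest to 22 of the 266 nhr genes (8.27%, 95% interval 5.26 to 12.3). The same rule called 618 of all protein-coding genes (3.09%). In the promoter window the count was 10 nhr genes (3.76%, 95% interval 1.82 to 6.80), against 2.22% of all protein-coding genes. Inside the gene body it was 7 nhr genes (2.63%), against 0.941% of all. The 10 genes of the window rule were nhr-1, nhr-32, nhr-47, nhr-48, nhr-49, nhr-50, nhr-58, nhr-66, nhr-68 and nhr-255. All but nhr-68 were also nearest to a summit, and the nearest rule added nhr-3, nhr-10, nhr-14, nhr-17, nhr-19, nhr-20, nhr-21, nhr-34, nhr-40, nhr-46, nhr-84, nhr-88 and nhr-105. Together the window and nearest rules gave 23 genes and 28 IDR summits, and 243 nhr genes had no IDR summit by either. The gene body rule counted 1 further summit, in an intron of nhr-17 (43.2, chromosome X, 12665012 to 12665401). It was nearer to the 5′ end of nlp-76 (1304 bp) than to that of nhr-17 (2647 bp), and it ranked 691, 885 and 357 in replicates 1, 2 and 3. Distance therefore decided much of the count: most of the summits that the nearest rule gave to nhr genes lay outside the promoter window. In whole larvae, strong binding in few cells and weak binding in many cannot be told apart. The intervals treat genes as independent draws, cover counting error only and do not measure spread between replicates. No test of the difference between nhr genes and other genes was run, and the replicates, not the genes, are the independent samples.

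**Figure D1:**
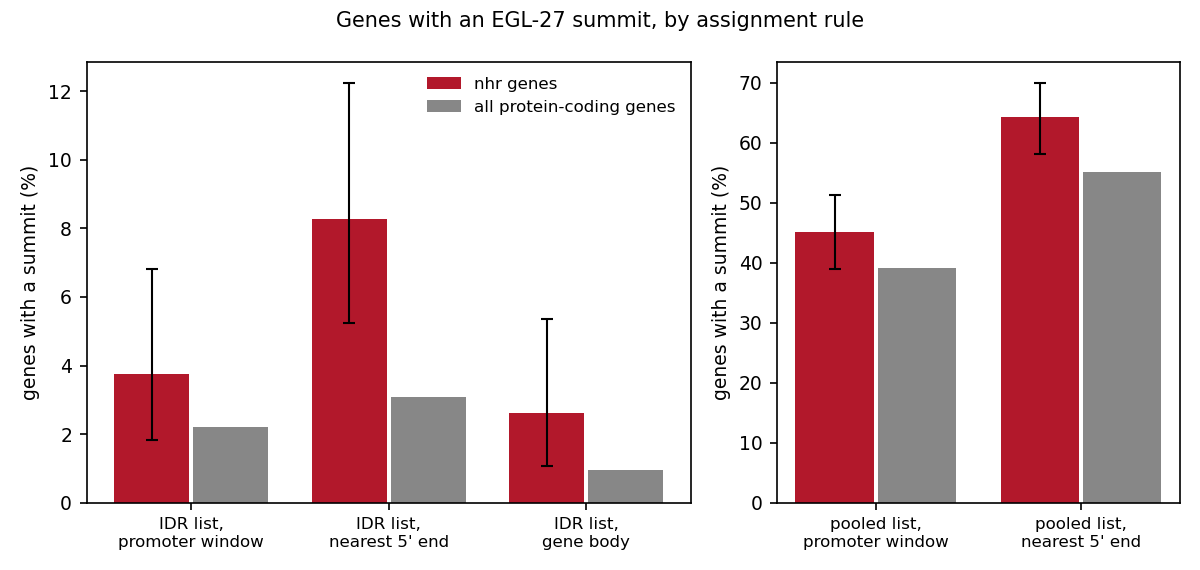
Share of genes (%) with an EGL-27 summit under 5 assignment rules, for the 266 nhr genes (red, with exact 95% binomial intervals) and all 19985 protein-coding genes (grey). The intervals cover counting error only and are no test of the difference. The nhr share is 8.27% against 3.09% by the nearest 5′ end, and 3.76% against 2.22% in the promoter window.

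The strongest nhr summits were distal or intronic. The highest signal, 101.5 (rank 28 of 705), lay in an intron of nhr-3 on chromosome X (14560259 to 14560648), 1950 bp downstream of the gene's 5′ end. A second summit of nhr-3, with a signal of 32.8, lay 1219 bp further on, 241 bp past the 3′ end of the gene and inside the non-coding RNA gene H01A20.4. In the authors' lists for replicates 1, 2 and 3 the intronic peak ranked 237, 75 and 18, so every replicate placed it within its 705 strongest. Its signals there were 11.3, 29.98 and 59.7, each on its own list's scale, where the list medians were 3.09, 5.79 and 4.81. The weaker nhr-3 peak ranked 6725, 808 and 227, and only replicate 3 placed it that high. Next came nhr-1 (97.1, rank 34, chromosome X, 17505702 to 17506091), whose summit lay 8166 bp upstream in intergenic sequence, the longest distance of all nhr summits. A second nhr-1 summit stood 277 bp upstream of the 5′ end (52.9). The distal nhr-1 peak ranked 438, 69 and 26 in replicates 1, 2 and 3, and the proximal one 247, 1097 and 265. For nhr-20 (95.4, chromosome III, 4237682 to 4238071) the summit was 4658 bp upstream, almost midway to F43C1.7, whose 5′ end was 4698 bp away. The peak ranked 14, 397 and 24, but its assignment to nhr-20 held in replicate 3 only. The summits of the same peak in replicates 1 and 2 were nearer to F43C1.7, at 4638 and 4667 bp, so it cannot be attributed to 1 of these genes. For all other nhr summits, every replicate peak that held the summit had the same nearest gene. The nhr-19 summit (87.4, chromosome II, 9603426 to 9603815) lay in an intron of the gene, 1629 bp downstream of a 5′ end, with ranks of 44, 318 and 48. At nhr-88 (78.8, chromosome II, 2974040 to 2974138) a narrow peak of 99 bp stood 2566 bp upstream, and it ranked 32, 2326 and 65, low in replicate 2 and high in both others.

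The sequences below show what stood under 4 of the 5 strongest genes' summits (nhr-3, nhr-1, nhr-20 and nhr-88) and under the 4 strongest promoter-window summits (nhr-48, nhr-58, nhr-1 and nhr-68). Those of nhr-10, nhr-105 and nhr-46 were picked because they hold the motifs marked, so how often the motifs occur is to be read from the counts over all 28 and not from these examples. Each runs for 101 bases centred on the summit, 5′ to 3′ on the plus strand of WBcel235. Capitals mark, on either strand, the GA repeat GAGAGA and the heptamer CTGCGTC. The heptamer is the core of CTGCGTCTC, a sequence described at worm regions where many factors bind. The motifs can overlap, as in the nhr-58 sequence.
nhr-3 intron, chrX:14560404-14560504: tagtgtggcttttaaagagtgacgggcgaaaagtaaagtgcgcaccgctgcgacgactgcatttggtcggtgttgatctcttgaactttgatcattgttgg
nhr-1 distal, chrX:17505847-17505947: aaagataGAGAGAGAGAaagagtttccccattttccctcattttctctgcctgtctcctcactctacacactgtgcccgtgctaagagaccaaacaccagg
nhr-1 proximal, chrX:17513736-17513836: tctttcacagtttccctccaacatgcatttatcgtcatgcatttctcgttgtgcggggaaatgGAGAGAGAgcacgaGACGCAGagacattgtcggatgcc
nhr-20, chrIII:4237827-4237927: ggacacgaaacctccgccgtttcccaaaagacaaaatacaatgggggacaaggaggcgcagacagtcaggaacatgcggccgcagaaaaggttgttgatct
nhr-88, chrII:2974023-2974123: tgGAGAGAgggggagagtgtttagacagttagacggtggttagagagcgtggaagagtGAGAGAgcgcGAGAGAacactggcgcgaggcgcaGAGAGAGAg
nhr-48, chrX:15707534-15707634: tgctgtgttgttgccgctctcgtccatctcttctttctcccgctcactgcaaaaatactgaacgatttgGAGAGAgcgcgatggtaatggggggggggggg
nhr-58, chrV:532160-532260: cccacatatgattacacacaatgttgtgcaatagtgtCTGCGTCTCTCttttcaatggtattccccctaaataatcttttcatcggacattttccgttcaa
nhr-68, chrV:11572976-11573076: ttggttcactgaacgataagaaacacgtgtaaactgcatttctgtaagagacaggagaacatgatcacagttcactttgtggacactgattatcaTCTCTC
nhr-10, chrIII:7116831-7116931: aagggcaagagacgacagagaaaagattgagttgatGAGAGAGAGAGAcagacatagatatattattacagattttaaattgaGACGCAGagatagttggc
nhr-105, chrIV:7048011-7048111: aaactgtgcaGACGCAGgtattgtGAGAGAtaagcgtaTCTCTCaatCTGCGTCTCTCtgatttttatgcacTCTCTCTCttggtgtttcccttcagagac
nhr-46 intron, chrIV:5754117-5754217: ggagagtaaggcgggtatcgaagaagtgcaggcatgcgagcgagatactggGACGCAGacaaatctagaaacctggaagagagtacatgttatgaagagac

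GA repeats were common under nhr summits. GAGAGA lay within 50 bp of 15 of the 28 nhr summits (53.6%) and of 291 of 704 nuclear IDR summits (41.3%). In windows of the same length centred 300 bp to the right it was present at 3 of 28 nhr summits (10.7%) and at 7.95% of all. CTGCGTCTC was under 5 nhr summits, those of nhr-17, nhr-10, nhr-58, nhr-105 and the proximal one of nhr-1 (17.9% against 15.2% of all nuclear IDR summits), and in 0 of 28 flanks. The E-box CACGTG was under 2, at nhr-68 and the stronger summit of nhr-32 (7.14% against 6.53% of all), and in as many nhr flanks (2 of 28, against 1.99% of all flanks). GATAA, the core of sites for GATA factors, was at 4 of 28 (14.3% against 15.8% of all) and in 5 of 28 flanks (17.9% against 22.4%). AGGTCA, a motif that many nuclear receptors bind, was found under 0 of 28 nhr summits and at 3.12% of all nuclear IDR summits, and in 2 of 28 flanks (7.14% against 3.84%). TATAAA was found under 1, at nhr-84 (3.57% against 3.98% of all), and in 4 flanks (14.3% against 11.5%). TAATTA was found under 0 (against 1.28% of all) and in 1 flank (3.57% against 4.55%). The strongest summit, in the nhr-3 intron, held none of these 7 motifs, and neither did that of nhr-20. Each motif was searched on both strands, and a match is a description of the letters, not a binding site. GC content had a median of 47.5% under nhr summits and 48.5% under all nuclear IDR summits.

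**Figure D2:**
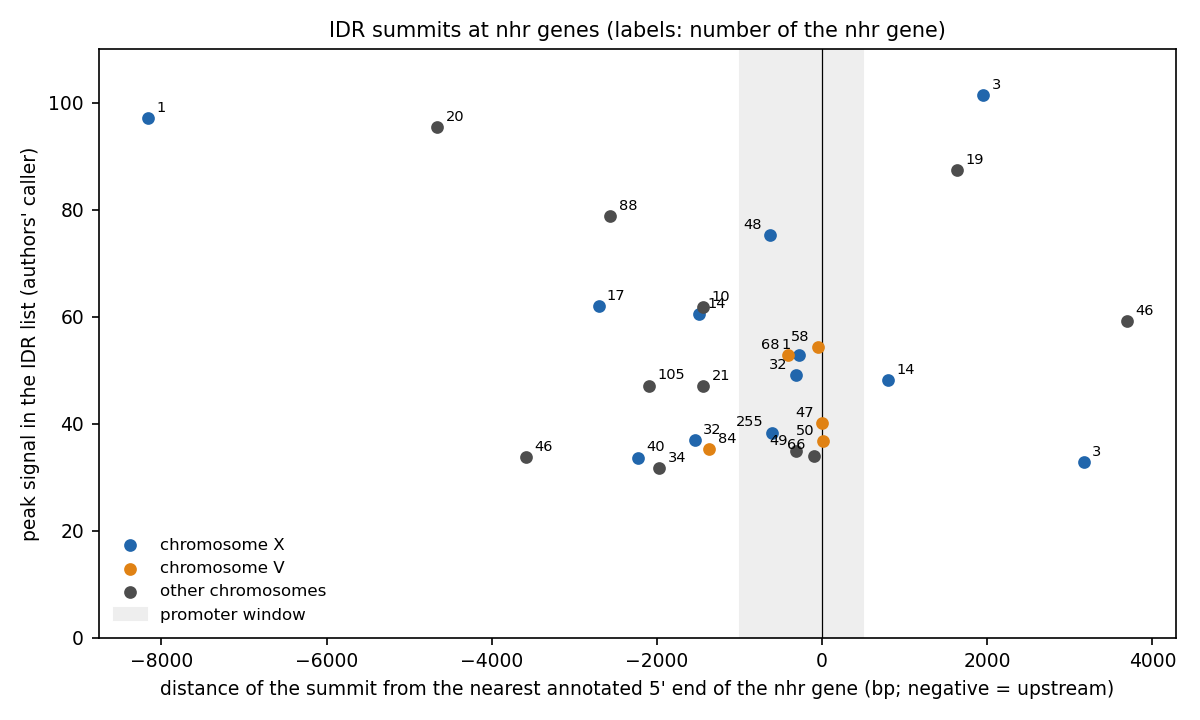
Signal of each of the 28 IDR peaks at nhr genes (vertical axis, as given by the authors' caller) against the distance in bp from the nearest annotated 5′ end of the nhr gene (horizontal axis, negative upstream). Points carry the number of the nhr gene, and the grey band is the promoter window. The highest signals, 101.5 for nhr-3 and 97.1 for nhr-1, lie outside the band.

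A list of receptors with close relatives in flies or vertebrates was written by hand, with earlier results of these data known. Of its 9 members, 1 had an IDR summit (11.1%, against 2.22% of all genes in the window and 3.09% nearest). That gene was nhr-48, which belongs with nhr-8 and daf-12 to the group related to vertebrate vitamin D and xenobiotic receptors. Its summit (75.2, rank 76, chromosome X, 15707389 to 15707778) lay 629 bp upstream of the 5′ end, with no other gene's window around it. The peak ranked 57, 136 and 150 in replicates 1, 2 and 3, with signals of 18.5, 24.6 and 33.1 on the scale of each list. It was thus among the top peaks in every replicate, and it was the strongest nhr summit in a promoter window. In the relaxed pooled list 5 of the 9 had a summit in the window (55.6%, against 39.2% of all genes). The highest of the others were nhr-41 (28.2, 194 bp from a 5′ end), a relative of the fly receptor DHR78, and nhr-85 (24.1, 892 bp), a relative of fly E75. Both fell short of the IDR list, whose lowest signal was 31.5. nhr-6, related to vertebrate NR4A receptors, had a pooled window summit of 7.92, and nhr-67, the worm relative of tailless, had none.

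Receptors with known roles in fat, diet and stress metabolism had 3 of 14 members in the window and 3 of 14 nearest to an IDR summit (21.4% each). Over all genes the shares were 2.22% and 3.09%, and 3 genes are too few for a precise share. This list, too, was written by hand with earlier results of these data known. NHR-68 and NHR-10 control the genes of the propionate shunt, a route for breaking down propionate. The nhr-68 summit (52.9, chromosome V, 11572831 to 11573220) lay 414 bp upstream and ranked 297, 159 and 448, within the top peaks of all replicates. It was 36 bp from the 5′ end of H12C20.7, to which the nearest rule gave it, so that peak cannot be attributed to 1 of the 2 genes. The nhr-10 summit (61.9, chromosome III, 7116686 to 7117075) was intergenic, 1443 bp upstream, and its ranks were 7355, 72 and 228. Replicate 1 stood apart for nhr-10, with a signal of 3.15, close to its list's median of 3.09.

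Weaker peaks marked the fat regulator nhr-49 and its partner nhr-66. NHR-49 acts in the fasting response and fatty acid desaturation. Its gene had an IDR summit (35.0, chromosome I, 9869138 to 9869527) 318 bp upstream of a 5′ end, with ranks of 1985, 1644 and 459, so only replicate 3 placed it in the top list. NHR-66, known to work with NHR-49, had a summit 102 bp upstream of an internal 5′ end of its gene (34.0, chromosome IV, 8229484 to 8229873), in an exon outside the coding sequence. That peak ranked 592 and 638 in replicates 2 and 3 and lay in no peak of replicate 1. The other 10 metabolic receptors had no IDR summit by either rule. In the relaxed pooled list nhr-31 reached 22.3, nhr-114 17.4, nhr-80 11.6 and nhr-28 10.6 in the window, while nhr-13, nhr-57, nhr-62 and nhr-86 had no pooled summit there.

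Other promoter-window summits were moderate in height. At nhr-58 (54.3, chromosome V, 532015 to 532404) the summit was 49 bp upstream of the 5′ end, and the next 5′ end, 2236 bp away, belonged to another receptor gene, nhr-132. Its ranks were 1440, 461 and 171. At nhr-47 (40.1, chromosome V, 5505054 to 5505443) the summit was 4 bp from the 5′ end, 392 bp upstream of the chaperone gene dnj-19 and within the non-coding gene C24G6.10. It ranked 3563 and 329 in replicates 2 and 3 and was in no peak of replicate 1. The nhr-50 summit (36.7, chromosome V) lay 7 bp downstream of the 5′ end, with ranks of 554, 754 and 1146, the only nhr summit that was a top peak of replicate 1 alone. The nhr-255 summit (38.3, chromosome X) was 611 bp upstream and ranked 9241, 472 and 279. The nhr-32 gene on X had 2 summits, at 317 bp (49.2) and 1544 bp (37.0) upstream.

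Distal upstream summits made up most of the rest. nhr-17 (61.98, chromosome X) had one 2707 bp upstream, nhr-105 (47.1, chromosome IV) at 2095 bp and nhr-21 (47.0, chromosome II) at 1440 bp. In replicates 1, 2 and 3 the nhr-17 peak ranked 5073, 184 and 146, with a signal of only 3.74 in replicate 1. The ranks were 1761, 332 and 237 for nhr-105, and 88, 1151 and 159 for nhr-21. The weakest were those of nhr-84 (35.3, chromosome V, 1367 bp), nhr-40 (33.7, chromosome X, 2232 bp) and nhr-34 (31.7, chromosome IV, 1973 bp). The nhr-40 product is needed for muscle development and movement, and its summit lay in the non-coding gene T03G6.6, 2268 bp from the 5′ end of T03G6.7, almost equally far. It was the only nhr summit in the top list of no replicate, with ranks of 9725, 2635 and 775. nhr-14, which acts in iron uptake, had a summit 1489 bp upstream (60.6) and one in an intron (48.2), and nhr-46 had a pair 687 bp apart in an intron (59.2 and 33.8). In all, 20 of the 28 nhr summits lay upstream of the gene, 7 inside it and 1 past its 3′ end.

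Some nhr genes held 2 IDR summits each. They were nhr-1, nhr-3, nhr-14, nhr-32 and nhr-46, 5 of the 22 genes nearest to a summit (22.7%), against 64 of the 618 such genes in all (10.4%). The paired summits stood 687 bp (nhr-46) to 7889 bp (nhr-1) apart. Of these genes, 4 lie on chromosome X. The 27 summits nearest to nhr genes had a median distance of 1489 bp from the 5′ end, against 784 bp for all 705 IDR summits. They lay more than 1000 bp away in 17 cases (63.0%, against 44.8% of all IDR summits) and more than 5000 bp away in 1 (3.70% against 5.96%). Placement upstream of the nearest annotated 5′ end was alike, at 77.8% and 76.5%. This measure also counts summits inside a gene that precede an internal 5′ end, as at nhr-66 and the weaker summit of nhr-46.

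Chromosome X carried 12 of the 28 nhr summits (42.9%, against 23.97% of all IDR summits). Chromosome V, home of most of the family, carried 4 of the 27 summits nearest to nhr genes. It carried 87 of all 704 nuclear IDR summits. The nhr-68 summit, given to an nhr gene by the window rule only, also lay on V. Of the 22 nhr genes on X, 8 were nearest to an IDR summit (36.4%), against 5.24% of all protein-coding genes there. Of the 167 on V, 4 were (2.40%, against 1.52% of all genes on V). Chromosome IV had 4 of 33 (12.1%, against 3.08% of all its genes), II had 3 of 15 (20% against 2.38%) and III had 2 of 8 (25% against 4.09%). On I it was 1 of 21, or 4.76%, near the 3.72% of all genes there. In the promoter window, X had 4 of 22 (18.2% against 2.86% of all its genes) and V 4 of 167 (2.40% against 1.22%). With V left out, an alternative added after the data were seen, 18 of 99 nhr genes were nearest to an IDR summit (18.2%, against 3.61% of all protein-coding genes elsewhere).

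Long intergenic sequence can bring a summit to a gene under the nearest rule, so the counts were also set against length. The sequence that lies closer to a 5′ end of an nhr gene than to that of any other gene came to 1431 kb, or 1.43% of the nuclear genome. It held 27 of 704 nuclear IDR summits (3.84%), which is 18.9 per Mb against 7.02 per Mb over the genome. On chromosomes other than V the values were 29.0 and 7.78 per Mb, on X 62.5 and 9.54, and on V 6.26 and 4.16. Relaxed pooled summits differed less, with 287 per Mb near nhr genes against 232 over the genome. Of the pooled summits nearest to nhr genes, 27 of 411 (6.57%) were IDR summits, against 3.03% of all nuclear pooled summits.

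**Figure D3:**
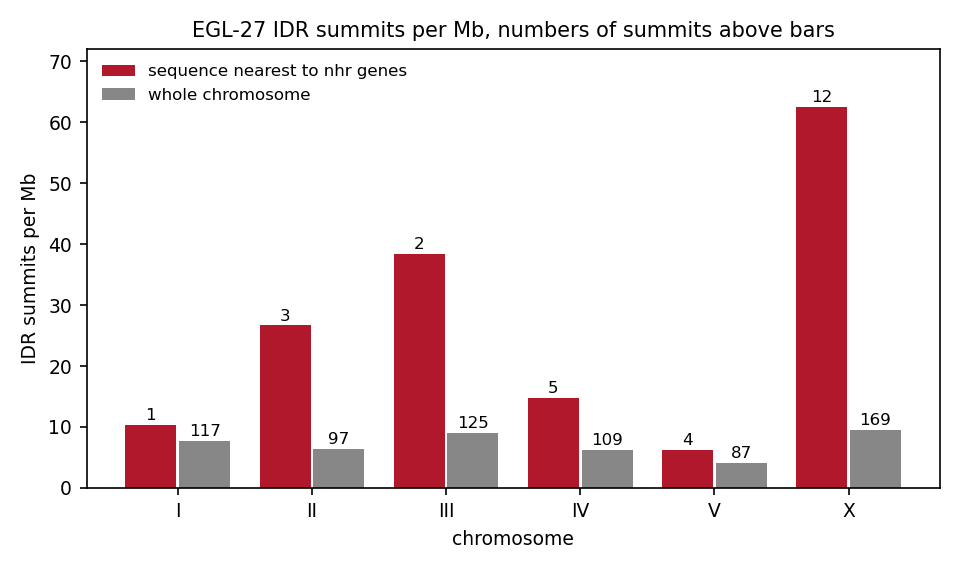
IDR summits per Mb (vertical axis) in the sequence nearest to nhr genes (red) and in the whole chromosome (grey), for the 6 nuclear chromosomes. Numbers above the bars count summits. The nhr counts are small, from 1 to 5 outside X and 12 on X, so all red bars are imprecise. The 12 on X belong to 8 genes and 192 kb of sequence. X shows 62.5 per Mb near nhr genes and 9.54 overall.

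Bound nhr genes were longer and had more empty sequence upstream than other nhr genes. The 23 genes with an IDR summit had a median length of 4321 bp and a median gap of 4942 bp to the next protein-coding gene upstream, against 2224 bp and 1358 bp for the other 243. Over the 708 protein-coding genes with an IDR summit by either rule these medians were 3446.5 bp and 1476 bp, and over all protein-coding genes 2026 bp and 936 bp. They were 3143 bp and 3526 bp for nhr genes off chromosome V, and 2146 bp and 1032 bp for those on V. The nearest rule called 18 of 99 nhr genes off V and 4 of 167 on V. Length and chromosome were not separated here. More than 1 annotated 5′ end was present in 56.5% of the 23 and 35.8% of the 243. Genes were then grouped by the length of sequence nearest to them. With 10 kb or more, 10 of 36 nhr genes were nearest to an IDR summit (27.8%), against 8.35% of all genes in that group. From 5 to 10 kb it was 6 of 55 (10.9%) against 4.23%, from 2.5 to 5 kb 6 of 131 (4.58%) against 2.20%, and under 2.5 kb 0 of 44 against 1.41%. The largest stretches among bound nhr genes belonged to nhr-46 (27.7 kb) and nhr-1 (23.7 kb), both with 2 summits, and the smallest to nhr-255 (3.19 kb). Length thus moved with the count in nhr genes and in all genes, and its part in the nhr count was not tested.

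**Figure D4:**
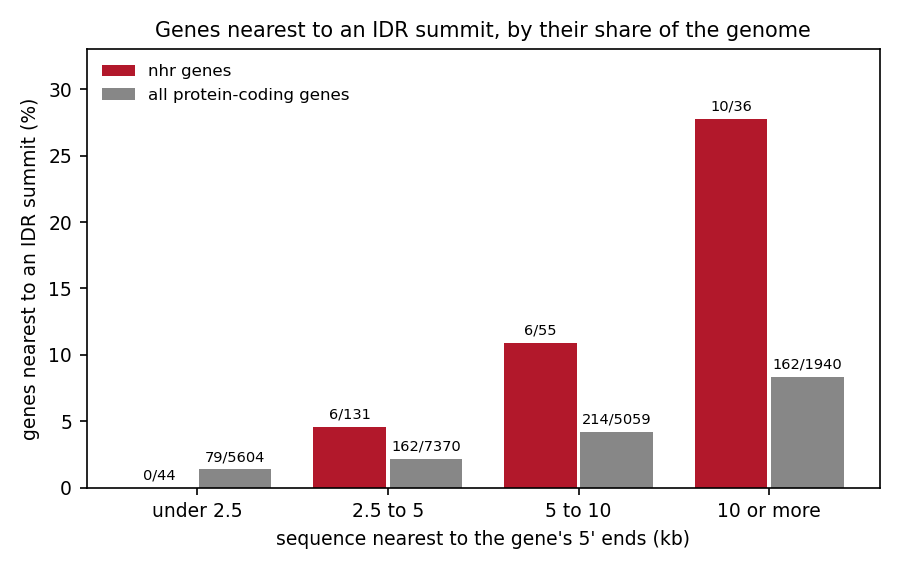
Share of genes (%) nearest to an IDR summit, for nhr genes (red) and all nuclear protein-coding genes (grey), in groups by the length in kb of the sequence nearest to their 5′ ends. Fractions above the bars give called genes over genes. In the group of 10 kb or more the shares are 27.8% and 8.35%.

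Replicates differed in how many nhr genes their own strongest peaks reached. To compare lists of equal length, the 705 highest-signal peaks of each replicate were used. Of these, 8, 27 and 0 were mitochondrial in replicates 1, 2 and 3, so the nuclear parts still differed in length. The nearest rule called 14 nhr genes in replicate 1, 20 in replicate 2 and 22 in replicate 3, which is 5.26%, 7.52% and 8.27%. Over all protein-coding genes the shares were 2.97%, 3.09% and 2.98%. The mean was 7.02% ± 1.57 for nhr genes and 3.01% ± 0.0638 for all (SD, n = 3), and the difference, from 2.29 to 5.29 percentage points (SD 1.54), was positive in 3 of 3 replicates. The genes nhr-1, nhr-3, nhr-14, nhr-19, nhr-32, nhr-46 and nhr-48 were nearest to a top peak in all 3 replicates (2.63% of nhr genes, against 0.951% of all). In the promoter window the nhr counts were 6, 8 and 11 (2.26%, 3.01% and 4.14%), against 2.00%, 2.19% and 1.94% of all genes. The difference there was 1.09 ± 0.999 percentage points (SD, n = 3), from 0.259 to 2.20, which is about as large as the spread between replicates. Replicate 3, which differs from the others in its source and fragmentation labels, gave the highest nhr share under both rules. With 1 such library, source, fragmentation and replicate cannot be told apart.

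Whole relaxed lists, which hold background by design, called large parts of both the nhr genes and all genes. The promoter window then held a summit for 85, 141 and 137 nhr genes in replicates 1, 2 and 3 (31.95%, 53.0% and 51.5%), against 27.5%, 44.6% and 45.7% of all genes. By the nearest rule it was 134, 188 and 190 (50.4%, 70.7% and 71.4%), against 43.4%, 62.8% and 65.2%. All relaxed replicate lists had a window summit for 40 nhr genes (15.04%, against 12.7% of all genes), and none had one for 62 (23.3% against 30.2%).

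At the level of single peaks, 8 of the 28 nhr summits (28.6%) were inside a top peak of all 3 replicates, against 28.1% of all IDR peaks. They were the intronic peak of nhr-3, the distal peak of nhr-1, and the peaks of nhr-20, nhr-19, nhr-48 and nhr-68, with the upstream peak of nhr-14 and the stronger peak of nhr-46. At least 2 top lists held 22 of the 28 (78.6%, against 64.3% of all IDR peaks). The top lists of replicates 1, 2 and 3 held 16, 17 and 24 of the 28 (57.1%, 60.7% and 85.7%). Of all IDR peaks they held 54.3%, 57.2% and 74.9%, close to the nhr shares in replicates 1 and 2. Mean recovery was 67.9% ± 15.6 for nhr summits, against 62.1% ± 11.1 for all IDR peaks (SD, n = 3). Since the IDR list derives from these replicates, recovery describes the peaks and does not measure reproducibility. The median signal of the 28 peaks was 48.7, against 42.9 for all 705, and 17 of the 28 (60.7%) were among the 352 strongest of the list.

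**Figure D5:**
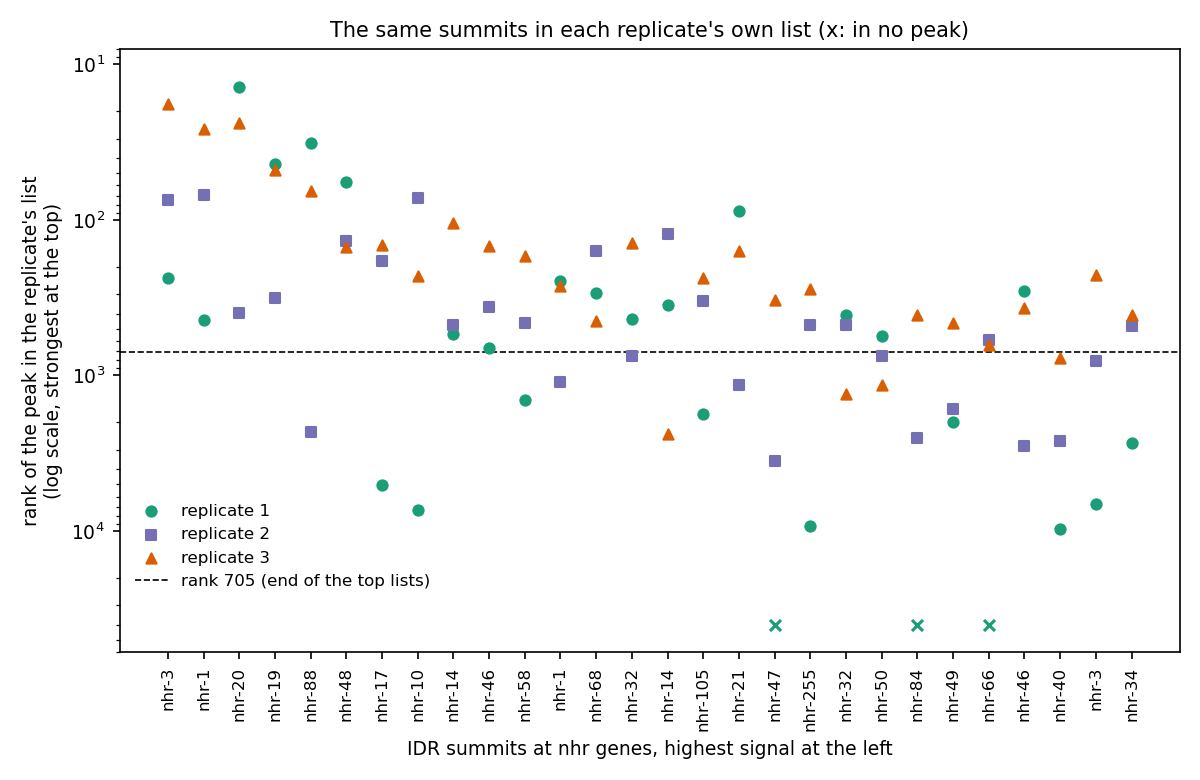
Rank of the peak that holds each nhr summit in the relaxed list of replicates 1 (circles), 2 (squares) and 3 (triangles), on a log axis with the strongest peaks at the top. Summits run along the horizontal axis by falling IDR signal, the dashed line is rank 705, and crosses mark 3 summits (nhr-47, nhr-84 and nhr-66) that lay in no peak of replicate 1. The lists differ in length, so a rank says only where a peak stood within its own list.

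The relaxed pooled list, which also holds the strong peaks at nhr genes, reached many more nhr genes, mostly at low signal. Its summits fell in the promoter window of 120 of the 266 (45.1%, 95% interval 39.0 to 51.3), against 39.2% of all genes, and stood nearest to 171 (64.3%), against 55.2% of all genes. The best window signal had a median of 12.6 over those 120 nhr genes and 11.8 over the 7840 genes of all kinds with a window summit. The highest among nhr genes without an IDR summit were nhr-104 (28.3), nhr-97 (28.3), nhr-41 (28.2), nhr-85 (24.1) and nhr-214 (23.7). These were followed by nhr-112 (22.6), nhr-31 (22.3), nhr-142 (22.1), nhr-64 (20.3) and nhr-130 (19.4). Of these 10, nhr-97 was a top peak of replicate 1 (rank 341), nhr-214 of replicate 2 (rank 530) and nhr-104 of replicate 3 (rank 676). The remaining 7 were in no top list. The nhr-142 summit, 518 bp from a 5′ end of that gene, was nearer to the 5′ end of another gene. That peak therefore cannot be attributed to nhr-142 alone.

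Small lists of receptors named otherwise and of partners of the family were read by the same rules. These lists were also written by hand with earlier results known, so their shares describe the lists only. Of 5 nuclear receptor genes with other names, 1 was nearest to an IDR summit (20%, against 3.09% of all genes). It was daf-12, which encodes the receptor for dafachronic acids in larval timing and dauer formation, with the summit inside the gene (44.6, 1695 bp from a 5′ end). The receptor genes fax-1, sex-1, odr-7 and unc-55 had no IDR summit. Among 9 genes of coregulators and hormone synthesis, 2 were called by both rules (22.2%, against 2.22% of all genes in the window and 3.09% nearest). They were din-1, a corepressor partner of DAF-12, with 4 summits nearest (up to 106.0) and 3 in the window (up to 47.2), and cbp-1, a histone acetyltransferase of the p300 type, with 1 (36.2). The Mediator gene mdt-15, the corepressor gene gei-8 and the dafachronic acid synthesis genes daf-9 and daf-36 had no IDR summit. Of 8 metabolic target genes, 1 was nearest to a summit (12.5%, against 3.09% of all genes). It was fat-2, a fatty acid desaturase gene, with the summit 1210 bp away (37.8), while fat-5, fat-6, fat-7 and acs-2 had no IDR summit.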

How the data were processed

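The deposited data were ChIP-seq peak lists in narrowPeak layout: 1 relaxed list for each of 3 biological replicates, 1 relaxed list for the pool, and an optimal list passed by IDR, which per the library notes in the deposited files derives from those 4. Peaks were thus called per replicate and on the pool, against 1 shared control alignment that was not used here. The sources used here do not name the aligner, the peak caller or the IDR cutoff. Peak height is the signal value deposited by the authors, comparable only within a list. The deposited -log10 q-value was tied over all 705 IDR peaks and did not enter the ranking. Read depth is unknown.

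The ce11 lists were read with the WBcel235 sequence and Ensembl release 115, whose chromosome ends lie at or beyond every peak. Coordinates are 1-based. Lists, assignment rules and named genes were chosen with earlier results of these data known. Named were each nhr gene with an IDR summit in its promoter window or nearest to it, the 10 further nhr genes with the highest relaxed pooled signal in the window, members of 5 hand-written gene lists, and genes sharing a window summit. The Ensembl name decided membership, and 3 nhr genes were not analysed here. Shares carry exact 95% binomial intervals (Clopper-Pearson), which cover counting error only and take no account of summits shared by neighbours. All 3 replicates form a single group, so no test between conditions exists and no p-value was computed. Python 3.11.15, pandas 2.3.3, scipy 1.17.1 and matplotlib 3.10.9 were used. The assignment step was tested on simulated summits.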

Additional observations from a re-analysis of the deposited data

How the results depend on the processing

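Of 35 alternative values of the main counts, 8 stayed within 1.5 times the value reported, and 27 moved beyond that. The moved values came from alternatives that use other peaks, another window or assignment rule, or leave out chromosome V. Nhr genes with an IDR summit in the window numbered 16 with windows of 2000 bp upstream (6.02%, against 3.22% of all genes). Among the 352 strongest IDR peaks they numbered 5 (1.88%, against 1.07% of all genes). The nearest rule then gave 14 genes (5.26%, against 1.59% of all genes) and 16 summits (4.55% of those peaks). The gene body rule gave 7 genes (2.63%, against 0.941% of all genes). Leaving out chromosome V, an alternative added after the data were seen, gave 6 of 99 nhr genes in the window (6.06%, against 2.55% of all genes). Without each replicate in turn, keeping IDR peaks found in the top lists of both others, 2 to 5 genes had a window summit, 8 to 14 genes were nearest and 9 to 14 summits were nearest. By the nearest rule the nhr share was 5.26%, 3.76% and 3.01% without replicates 1, 2 and 3, and that of all genes 1.36%, 1.32% and 1.05%. Those lists hold at most 305 of the 705 peaks. Nhr genes took 4.59%, 3.93% and 3.77% of the summits without replicates 1, 2 and 3, against 3.83% of all IDR summits. For the window the nhr share was 1.88%, 1.504% and 0.752% without replicates 1, 2 and 3, and that of all genes 0.871%, 0.871% and 0.756%, so the nhr share was no higher without replicate 3, when the 2 genes were nhr-48 and nhr-68. No paired analysis was possible because all samples form 1 group. Of the 23 nhr genes with an IDR summit, 15, 11 and 9 still had one without replicates 1, 2 and 3. In the relaxed pooled list, the 5000 strongest peaks gave 45 window and 73 nearest nhr genes (16.9% and 27.4%, against 12.5% and 17.9% of all), peaks present in all replicates 24 and 41 (9.02% and 15.4%, against 5.58% and 8.03%). Leaving out a replicate gave 28 to 45 window genes (10.5% to 16.9%, against 8.52% to 14.1% of all) and 51 to 79 nearest genes (19.2% to 29.7%, against 13% to 22.3%). Of the 28 nhr summits, 16 were in the 2000 strongest peaks of all replicates, as were 48.9% of all IDR peaks. All relaxed lists held 25 of the 28 (89.3%, against 83.8% of all IDR peaks). Read depth is unknown, so the precision of a single peak's signal cannot be given.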

Other observations

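The core CTGCGTC was searched after the summit sequences had been seen, since several nhr summits held it without the full CTGCGTCTC. It lay within 50 bp of 9 of the 28 nhr summits (32.1%), against 18.6% of all 704 nuclear IDR summits, and in 0 of the 28 flanks, against 1.28% of all flanks. The 4 nhr summits that held the core but not the longer motif were those of nhr-21 and nhr-66, the upstream one of nhr-14 and the stronger one of nhr-46. GAGAGA or the core was present under 18 of the 28 nhr summits (64.3%) and under 50.7% of all nuclear IDR summits. This choice followed the data, and no test was run on it.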
